A study of Mus musculus and Homo sapiens
Mus musculus with 16 samples.

Results

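The zinc finger homeobox genes Zeb1, Zeb2, Zfhx3 and Zfhx4 were followed in H3K4me3 PLAC-seq lists of promoter-centred chromatin interactions from mouse fetal forebrain, in 2 libraries at E16.5 and 2 at E12.5. An interaction was assigned to a gene when either of its 10 kb bins overlapped the gene body in mm10, and 159 of the 58543 bin pairs listed in any library were assigned in this way. Zfhx3 had 91 of them, Zeb2 44, Zfhx4 14 and Zeb1 10. PLAC-seq ligates stretches of DNA that are neighbours in the nucleus and pulls down those bound to a chosen histone mark, here H3K4me3, which sits at active and poised promoters. Each library was a bulk sample of whole forebrain, and the labels give no strain, sex or number of embryos. Because replicates are not said to come from separate litters, each p-value reflects at most the spread among these libraries, which may be technical. For interaction numbers it rests largely on the counting noise that the model assumes, because the fitted spread beyond it was very small (common dispersion 9.8e-05). A bin pair that was not listed is one that did not pass the submitters' threshold, not one known to lack contact. A change in a listed interaction can come from the mark or from the contact, and from more cells with either or more of it per cell, and these cannot be told apart here.

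The genes encode large transcription factors that combine zinc fingers with homeodomains. ZEB1 and ZEB2 bind E-box elements through zinc finger clusters at both ends of the protein, act mainly as repressors with CtBP, and are best known for shutting off epithelial genes. In the forebrain, Zeb1 is a gene of progenitors, and Zeb2 is needed in young cortical neurons and in migrating interneurons; loss of one human ZEB2 copy causes Mowat-Wilson syndrome. ZFHX3, also called ATBF1, and ZFHX4 are much larger proteins with several homeodomains, and Zfhx3 is known from neuronal differentiation and from the circadian clock of the suprachiasmatic nucleus.

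Of the 44 Zeb2 bin pairs, 22 involved the bin that holds the starts of the gene, so its promoters are shown first. The promoter table held entries for Zeb2 and Zfhx3 among the 4 genes. The lines below give the RefSeq promoters (GRCm38.p6, minus strand, 250 bases before to 50 after a start) of the outermost and innermost of 4 Zeb2 starts, at chr2:45117393-45117692 and chr2:45110228-45110527. CpG dinucleotides are in capitals, because H3K4me3 is found mostly at CpG-rich promoters.
Zeb2 outermost start: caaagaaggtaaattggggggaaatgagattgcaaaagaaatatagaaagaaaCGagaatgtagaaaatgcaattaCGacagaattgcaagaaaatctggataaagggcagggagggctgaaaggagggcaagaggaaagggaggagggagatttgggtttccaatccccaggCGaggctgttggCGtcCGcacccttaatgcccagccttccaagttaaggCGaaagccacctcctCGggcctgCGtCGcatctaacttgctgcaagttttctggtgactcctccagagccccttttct
Zeb2 innermost start: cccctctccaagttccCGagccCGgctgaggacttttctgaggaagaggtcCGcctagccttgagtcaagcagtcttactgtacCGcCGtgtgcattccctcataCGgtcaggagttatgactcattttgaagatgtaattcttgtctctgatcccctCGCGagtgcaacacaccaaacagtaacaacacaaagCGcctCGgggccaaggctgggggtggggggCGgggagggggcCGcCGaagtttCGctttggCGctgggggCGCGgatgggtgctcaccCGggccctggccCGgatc
The innermost window had 19 CpGs, more than 71.4% of 31396 autosomal promoter windows of the same length, and the outermost 9, more than 53.8%. Neither window held the E-box CACCTG on either strand (read as CACCTG or CAGGTG), which 20.5% of all windows held.

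In RefSeq on GRCm38.p6, Zeb2 spans chr2:44983512-45117442, Zfhx3 spans chr8:108279311-108961636, Zfhx4 covers 197644 bases of chromosome 3 and Zeb1 184142 bases of chromosome 18. Interactions of the 4 genes gathered on a few bins around a gene start or gene end. The bin with the Zeb2 starts, chr2:45110001-45120000, took part in 22 of the 44 Zeb2 bin pairs, and the neighbouring bin at chr2:45100001-45110000, which holds none of them, in 21. For Zfhx3, the bin with the start given in the promoter table, chr8:108710001-108720000, took part in 33 of 91 bin pairs. The next bin towards lower coordinates took part in 32, and the one after that, chr8:108690001-108700000, in 17. The bin at chr8:108690001-108700000 also holds the start of the lncRNA gene Gm42043, and which start its pairs belong to was not tested. The RefSeq body of Zfhx3 is 682326 bases long because it includes predicted transcripts, and its bins below the start bin lie in that predicted stretch. Counted from the start bin on, Zfhx3 had 21 and 29 interactions at E16.5 against 15 and 12 at E12.5, in place of 56 and 48 against 31 and 30, so the choice of body sets much of its number. The RefSeq promoter at the Zfhx3 start had 21 CpGs in 300 bases, more than 74.6% of all windows.

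The libraries differed in length. The E16.5 lists held 35291 and 36794 interactions and the E12.5 lists 18413 and 16075, with 892987 and 911710 read pairs at E16.5 and 446855 and 405491 at E12.5. The depth of the libraries beyond the listed interactions is unknown. The zinc finger homeobox genes made up 0.286% and 0.242% of the lists at E16.5, against 0.288% and 0.243% at E12.5, so their summed share overlapped between stages. Zeb2 held 33.7% and 32.6% of the interactions of the 4 genes at E16.5, against 13.2% and 5.13% at E12.5. As a check of tissue, 8 of 8 forebrain markers had at least 10 interactions in all, with 346 and 329 at E16.5 against 321 and 333 at E12.5. Hindbrain and midbrain markers summed to 87 and 56 at E16.5 against 163 and 110 at E12.5, with Hoxb1 and En2 at 0 in every library; 6 of their 8 tested genes fell and 0 rose, where 3.49% of all tested genes fell and 10.8% rose. The 6 endothelial markers summed to 1 and 2 at E16.5 against 0 and 0 at E12.5, with Cdh5, Pecam1, Tek and Kdr at 0. The meninges and mesenchyme markers summed to 72 and 55 at E16.5 against 51 and 53 at E12.5 (4 of 7 tested, 0 passed; Col1a2 and Twist1 at 0), and the 6 matched microglia and blood markers to 5 in each library (1 tested, 0 passed; Cx3cr1, Csf1r, Hbb-bs and Hba-a1 at 0). Of the forebrain markers, 1 rose and 4 fell. The part of the hindbrain and midbrain difference in the results on Zeb2, Zfhx3, Zeb1 and Zfhx4 was not tested.

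Zeb2, the repressor gene of young neurons, had several times more listed interactions at E16.5 than at E12.5. It had 34 and 29 listed interactions in the E16.5 libraries, against 7 and 2 in the E12.5 libraries. Both E16.5 values lay above both E12.5 values. The same held for 64.5% of all tested genes with the longer E16.5 lists, and 3.4% were lower without overlap. Scaled by the library total alone, which is the summed numbers of the tested genes, the Zeb2 log2 change was 1.81. After TMM scaling as well, the Zeb2 number rose 3.83-fold (log2 change 1.94, SE 0.42, adjusted p = 0.00868, edgeR's quasi-likelihood test over 4035 genes). Of those genes, 10.8% rose and 3.49% fell, and the median gene changed by 0.25 on the log2 scale (0.11 with the library total alone), so Zeb2 lay 1.69 above the median. The test treats neighbouring bin pairs as separate counts, although the Zeb2 interactions formed 11 and 6 clusters at E16.5 against 3 and 1 at E12.5. Its p-value may therefore be too small. The rise kept its direction in all 16 alternatives, with adjusted p from 0.000203 to 0.492. The call ended without E12.5 replicate 2 (log2 change 1.32, adjusted p = 0.107), with lists cut to equal length (adjusted p = 0.0655), with an FDR under 0.0001 (0.0751), with the read pairs summed (0.290) and with each cluster of neighbouring interactions counted once (0.492), where the log2 change was 1.39.

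**Figure D1:**
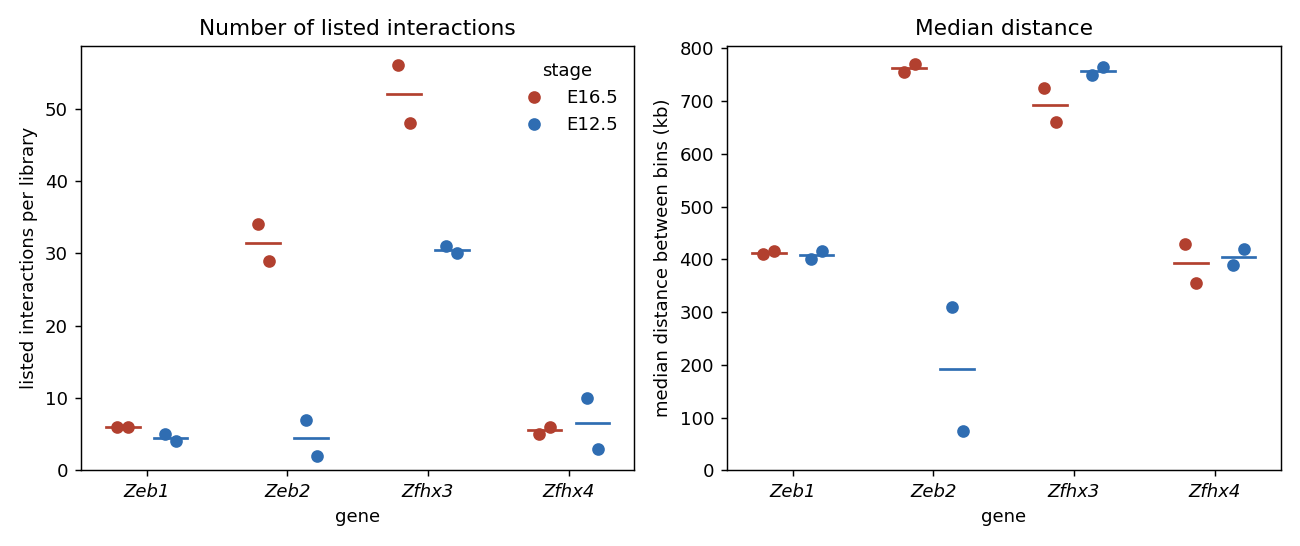
Listed interactions (left) and the median distance between interacting bins in kb (right) for each gene and library, with points for the 2 libraries of a stage and a bar for their mean. Zeb2 shows 34 and 29 interactions at E16.5 against 7 and 2 at E12.5, and its median distance was 755 and 770 kb against 310 and 75 kb.

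Of the other 3 genes, none passed in either direction. Over the whole RefSeq body, Zfhx3 had the most interactions of the 4 genes, with 56 and 48 at E16.5 against 31 and 30 at E12.5. With the shorter body it did not exceed Zeb2 at E16.5, where it had 21 and 29 against 34 and 29 for Zeb2. Its raw numbers were higher at E16.5 and did not overlap, as was true of 64.5% of all tested genes with the longer E16.5 lists (3.4% were lower without overlap). After the same TMM scaling the Zfhx3 change did not pass (log2 change -0.08, SE 0.21, adjusted p = 0.861, edgeR's quasi-likelihood test), with a sign that turned in 6 of 15 alternatives. Zeb1 had 6 and 6 at E16.5 against 5 and 4 at E12.5 (log2 change -0.42, SE 0.53, adjusted p = 0.717). Zfhx4 had 5 and 6 at E16.5 against 10 and 3 at E12.5, so its stages overlapped (log2 change -1.07, SE 0.56, adjusted p = 0.242). For Zfhx4 the size rested on single libraries: leaving out E12.5 replicate 1 gave a log2 change of -0.08, and leaving out replicate 2 of that stage gave -1.68. Zfhx3 had more interactions than 99.3% of the 9751 genes with any (96.6% with the shorter body), Zeb2 more than 96.1%, Zfhx4 more than 81.4% and Zeb1 more than 78.7%. Per 100 kb of gene body the order was different. Zeb2 had 25.4 and 21.7 interactions per 100 kb at E16.5 against 5.23 and 1.49 at E12.5, and Zfhx3, over its whole RefSeq body, 8.21 and 7.03 against 4.54 and 4.40. Zeb1, at 3.26 in both E16.5 libraries against 2.72 and 2.17, and Zfhx4, at 2.53 and 3.04 against 5.06 and 1.52, overlapped each other at E12.5.

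The Zeb2 interactions at E16.5 ran to 1 side of the gene. Of 34 and 29 at E16.5, 27 and 29 led towards lower coordinates, beyond the far end of Zeb2, against 2 and 0 of 7 and 2 at E12.5. The largest group ended inside Arhgap15, a gene for a GTPase-activating protein. It took 14 partner bins 720 to 1000 kb from Zeb2, with 16 and 21 interactions (288 and 272 read pairs) at E16.5 and 0 and 0 listed at E12.5. Since the lists stop at 1000 kb, partners farther off would not be seen. Arhgap15 itself had 17 and 21 interactions at E16.5 against 0 and 0 at E12.5, and nearly all of those were the same bin pairs with Zeb2. The lower end of Gtdc1, a glycosyltransferase-like gene next to Zeb2, gave 4 and 3 interactions at E16.5 against 0 and 0 at E12.5. The stretch between Arhgap15 and Gtdc1 gave 7 and 5 against 2 and 0.

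Among single partner bins of Zeb2, the one listed in most libraries was chr2:44550001-44560000, between Arhgap15 and Gtdc1, with 41 and 30 read pairs at E16.5 against 23 and 0 at E12.5. It was the partner with read pairs in 3 libraries, and E12.5 replicate 2 was the one without. The bin at chr2:44300001-44310000 inside Arhgap15 had 61 and 49 read pairs at E16.5 and was not listed at E12.5. The same held for chr2:44570001-44580000 in Gtdc1 (39 and 32 read pairs), chr2:44510001-44520000 between the genes (40 and 30) and chr2:44310001-44320000 in Arhgap15 (36 and 31). In all, 11 of the 28 partner bins outside Zeb2 were listed in both E16.5 libraries and neither E12.5 library, and 0 showed the reverse. Over the partner bins of all protein-coding genes, 15.6% were listed in both E16.5 libraries and neither E12.5 library and 1.5% the other way, and the difference for Zeb2 was not tested. The bin at chr2:44300001-44310000 had 2 and 3 interactions of any kind at E16.5, each of them with Zeb2.

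**Figure D2:**
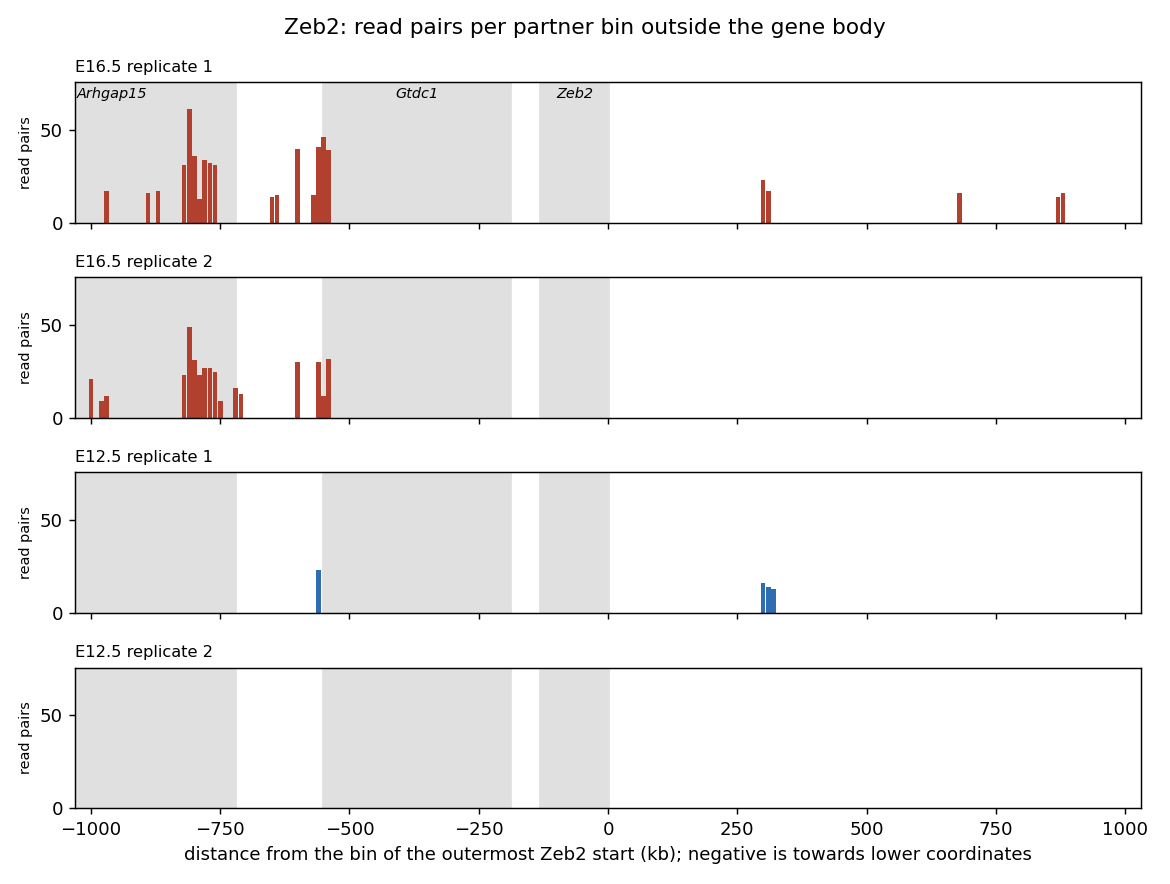
Read pairs (vertical axis) in listed interactions of Zeb2 with each 10 kb partner bin outside the gene body, against the distance in kb from the bin of the outermost Zeb2 start, 1 panel per library, with grey bands for the bodies of Arhgap15, Gtdc1 and Zeb2. Both E16.5 libraries show blocks of partners inside Arhgap15 and at the lower end of Gtdc1, E12.5 replicate 1 shows 4 partner bins and E12.5 replicate 2 none.

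A few Zeb2 interactions did not follow that pattern. On the other side, at chr2:45410001-45430000 in the lncRNA genes Gm13479 and Gm30728, E16.5 replicate 1 listed 23 and 17 read pairs for the 2 bins and E12.5 replicate 1 listed 16 and 14, while both replicates numbered 2 listed none. Farther off on that side, E16.5 replicate 1 alone listed chr2:45790001-45800000, chr2:45980001-45990000 and chr2:45990001-46000000, with 16, 14 and 16 read pairs, and E12.5 replicate 1 alone listed chr2:45430001-45440000, with 13. Within the gene, the bin at chr2:45100001-45110000 was paired with chr2:45020001-45030000, the bin of the miRNA gene Mir5129, by 69 and 0 read pairs at E16.5 against 31 and 30 at E12.5. Its pair with the next bin, chr2:45030001-45040000, had 50 and 0 at E16.5 against 31 and 27 at E12.5. The observed over expected ratio of these 2 pairs was 2.03 to 2.75 where listed, and the lowest ratio in the lists was 2.00. A value of 0 in E16.5 replicate 2 says only that the pair was not listed there, and its ratio in that library is unknown. Of 43 Zeb2 bin pairs listed at E16.5, 20 were in both replicates (46.5%, against 40.5% of all listed bin pairs at E16.5). Of 7 listed at E12.5, 2 were in both (28.6%, against 37.9% of all at E12.5).

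The Zeb2 interactions listed at E16.5 were also longer. The median distance of Zeb2 interactions was 755 and 770 kb at E16.5 against 310 and 75 kb at E12.5. Of these interactions, 88.2% and 100% spanned 500 kb or more at E16.5 against 28.6% and 0% at E12.5. The E12.5 values rested on 7 and 2 interactions, and 2 in each library lay within the gene. Over all listed interactions, 26.3% and 23.8% spanned 500 kb or more at E16.5 against 20.6% and 19.8% at E12.5. Over all listed interactions the median was 300.0 and 290.0 kb at E16.5 and 260.0 kb in both E12.5 libraries. The Zfhx3 median was long at both stages, with 725 and 660 kb at E16.5 against 750 and 765 kb at E12.5. For both genes the stages did not overlap, and the two-sided exact permutation p over 6 assignments was 0.333, the smallest that 2 libraries against 2 can give. Of 3478 genes with an interaction in every library, 21.2% had longer and 14.3% shorter medians at E16.5 without overlap. Zeb1 had 410 and 415 kb at E16.5 against 400 and 415 kb at E12.5, and Zfhx4 430 and 355 kb against 390 and 420 kb. The stages overlapped for these 2 genes (exact permutation p = 1.0 for both).

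Zfhx3 had partners on its lower-coordinate side at both stages, and on the other side it had more of them at E16.5. Between Psmd7, a proteasome subunit gene, and Zfhx3, a stretch with no other protein-coding gene, 26 partner bins gave 36 and 29 interactions at E16.5 against 26 and 25 at E12.5. The bin at chr8:107940001-107950000, 770 kb from the bin of the Zfhx3 start, had the most read pairs of any Zfhx3 partner summed over the 4 libraries, though not at E16.5, with 99 and 65 at E16.5 against 43 and 58 at E12.5. Its neighbour at chr8:107950001-107960000 had 75 and 61 at E16.5 against 41 and 45 at E12.5, and the bin at chr8:108240001-108250000, 470 kb away, had 47 and 38 against 30 and 27. At chr8:107810001-107820000, in the lncRNA genes Gm42040 and Gm39242, the values were 37 and 16 at E16.5 against 26 and 27 at E12.5. These are sums over anchor bins and were not scaled for list length. All 4 of these bins were listed in all libraries, as were 7 of the 41 partner bins of Zfhx3.

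On the higher-coordinate side, between Zfhx3 and Pmfbp1, a gene known from sperm, 9 partner bins gave 14 and 12 interactions (222 and 171 read pairs) at E16.5 and 0 and 0 at E12.5. One bin, chr8:109240001-109250000, 530 kb from the start bin, gave 7 and 7 of these, with 137 and 116 read pairs. It holds the start of the lncRNA gene 4922502B01Rik and lies within D030068K23Rik, another lncRNA gene. Over all of its partners, within Zfhx3 or not, this bin had 11 and 9 interactions at E16.5 and 0 and 0 at E12.5. Its strongest contact, with the start bin of Zfhx3, had 25 and 26 read pairs at E16.5, and it was also listed with chr8:108890001-108900000 (20 and 13) and chr8:108900001-108910000 (25 and 17) towards the far end of Zfhx3. Of these far-end bins, the first had no listed interaction at E12.5, and the second had 1, with the start bin, in E12.5 replicate 1 (24 read pairs). Next to it, chr8:109250001-109260000 had 14 and 22 read pairs at E16.5 and chr8:107960001-107970000, on the lower side, 19 and 9, both unlisted at E12.5. In the other direction, chr8:107980001-107990000 and chr8:109400001-109410000 had no listed interaction with Zfhx3 at E16.5, against 10 and 10 read pairs each at E12.5. In Pmfbp1, the bin at chr8:109410001-109420000 was shared by all libraries, with 56 and 37 read pairs at E16.5 against 17 and 29 at E12.5. Of the 41 partner bins of Zfhx3, 3 were listed in both E16.5 libraries and neither E12.5 library, and 2 showed the reverse. Over the partner bins of all protein-coding genes, the shares were 15.6% and 1.5%. Partners restricted to both libraries of a stage are thus not particular to Zfhx3. The difference between the sides was not tested.

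**Figure D3:**
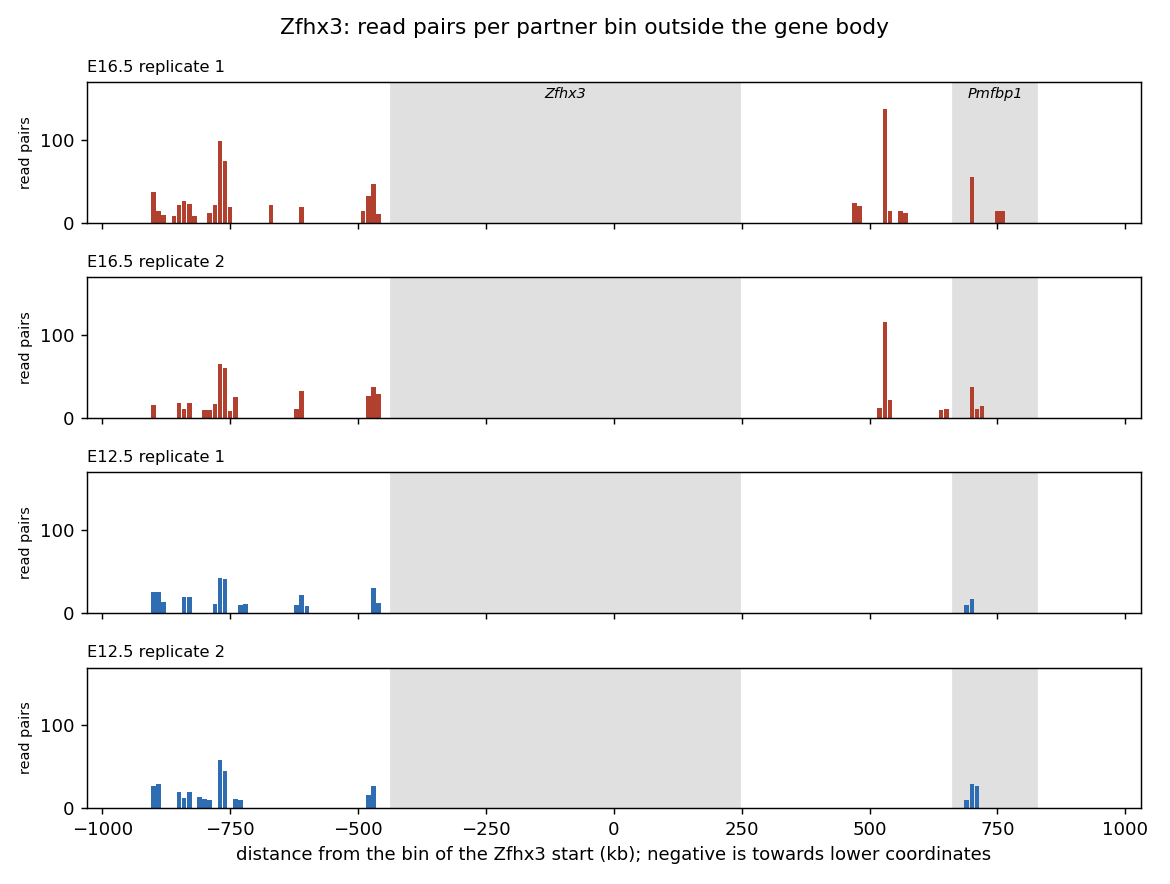
Read pairs (vertical axis) in listed interactions of Zfhx3 with each 10 kb partner bin outside the gene body, against the distance in kb from the bin of the Zfhx3 start, 1 panel per library, with grey bands for the bodies of Zfhx3 and Pmfbp1. Some partners on the left are listed in all 4 libraries and others in fewer. The peak 530 kb to the right has 137 and 116 read pairs at E16.5 and none listed at E12.5.

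Zeb1 and Zfhx4 had small sets of partners, of which some were shared between stages. Of the 10 Zeb1 and 14 Zfhx4 bin pairs, 4 and 7 were listed at both stages, and 2 and 0 in all 4 libraries. The bin at chr18:5590001-5600000, which holds the lower end of Zeb1, was paired with chr18:5160001-5170000 by 23 and 27 read pairs at E16.5 against 22 and 21 at E12.5. On the other side, it was paired with chr18:5980001-5990000 by 21 and 22 at E16.5 against 26 and 11 at E12.5. The first partner holds the lncRNA gene Gm26682, and the second holds no annotated gene. Next to the first, chr18:5150001-5160000 was listed with a different Zeb1 bin at each stage. It had 11 and 8 read pairs with chr18:5600001-5610000 at E16.5, and 11 and 11 with chr18:5590001-5600000 at E12.5. Next to the second, chr18:5990001-6000000 was paired with chr18:5590001-5600000 by 0 and 11 at E16.5 against 15 and 13 at E12.5. A partner in Zfp438, a zinc finger gene, was listed in E16.5 replicate 1 alone, with 29 read pairs. Zeb1 had 10 bin pairs, 2 of them in all libraries, and 0 of its 5 partner bins were restricted to both libraries of 1 stage.

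For Zfhx4, the partner at chr3:4790001-4800000, with the start of the lncRNA gene 1110015O18Rik, was listed in every library, with 22 and 14 read pairs at E16.5 against 27 and 9 at E12.5. The bin at chr3:5570001-5580000 in Pex2, a peroxisome biogenesis gene, had 32 and 24 at E16.5 against 31 and 0 at E12.5. The bin at chr3:6100001-6110000, with the start of the lncRNA gene Gm46796, had 11 and 11 against 19 and 0, and its neighbour at chr3:6110001-6120000 had 10 and 0 against 9 and 0. E12.5 replicate 2 listed 3 interactions, all towards the lower-coordinate side, and so lacked the Pex2 partner. The last of the 5 leading partners, chr3:4800001-4810000, was listed in that library alone (10 read pairs). Within the gene, contacts 100 to 130 kb long were listed in E16.5 replicate 2 (17 and 18 read pairs) and, with other bins, in E12.5 replicate 1 (18, 18 and 20 read pairs).

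Where the same contact was listed in all 4 libraries, its strength could be compared. This held for 11 contacts of Zfhx3 and 2 of Zeb1 among 6875 tested, and for none of Zeb2 or Zfhx4. None of the 13 passed, while 10.5% of all tested contacts did (5.88% higher and 4.58% lower at E16.5; edgeR's quasi-likelihood test, adjusted p under 0.05). The smallest p among them was that of the Zfhx3 start bin with chr8:108240001-108250000, with 15 and 12 read pairs at E16.5 against 21 and 12 at E12.5 (log2 change -0.65, SE 0.30, adjusted p = 0.283). The bin before the start bin, chr8:108700001-108710000, met chr8:107950001-107960000 with 33 and 23 read pairs at E16.5 against 14 and 18 at E12.5 (log2 change 0.44, SE 0.29, adjusted p = 0.411). It met chr8:107940001-107950000 with 32 and 16 at E16.5 against 14 and 14 at E12.5 (log2 change 0.41, SE 0.31, adjusted p = 0.490). Raw counts were higher at E16.5 without overlap in 4 of the 11 Zfhx3 contacts and 1 of the 2 Zeb1 contacts, and lower without overlap in 0, against 50.7% higher and 7.87% lower over all tested contacts before scaling. The Zeb1 contacts at 430 and 390 kb changed by -0.15 each, with an interval of 2 SE from -0.70 to 0.41 for the first and from -0.76 to 0.47 for the second. Log2 changes over the 11 Zfhx3 contacts ran from -0.65 to 0.44 with a median of -0.12, against a median of -0.01 over all tested contacts.

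**Figure D4:**
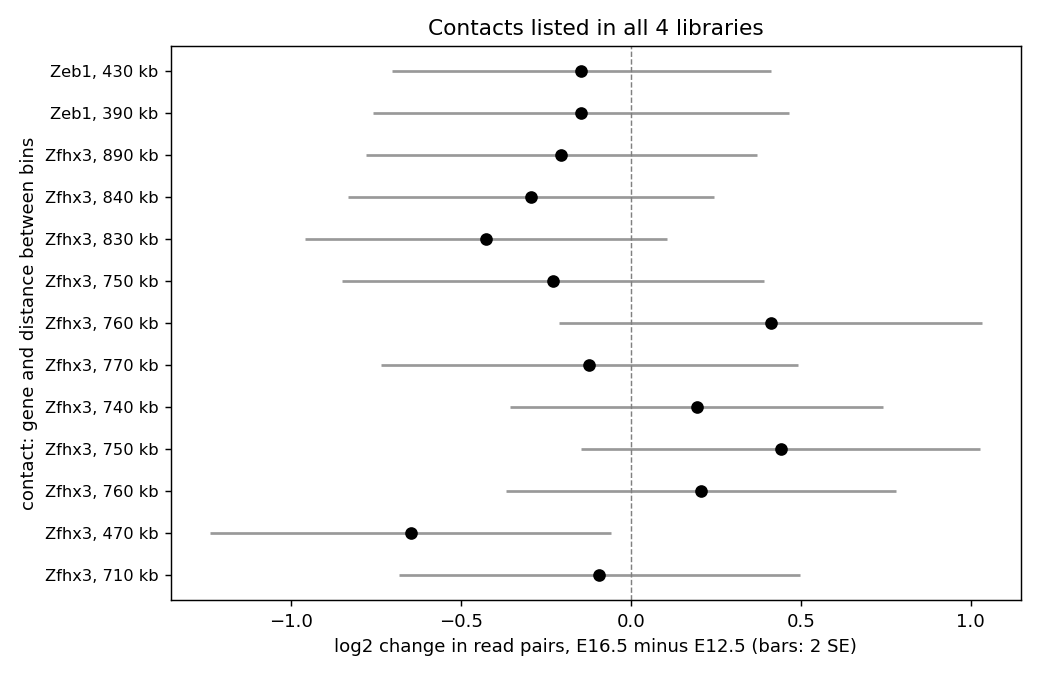
Log2 change in read pairs (horizontal axis, E16.5 minus E12.5) of the 13 contacts of Zeb1 and Zfhx3 listed in all 4 libraries, labelled by gene and distance in kb, with points for the fitted change and bars of 2 SE. The changes lie between -0.65 and 0.44, and the bars of 12 contacts cross 0. The remaining one had an unadjusted p of 0.080 and an adjusted p of 0.283 (edgeR's quasi-likelihood test). Its bar is thus narrower than its p-value implies, and the other bars may be too short as well.

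Related genes were read through the same fit. Of 10 other zinc finger and ZHX-class homeobox genes, 8 had enough interactions for the test, and 1 rose and 0 fell, near the 10.8% and 3.49% of all tested genes (median log2 change 0.63 over the 8, against 0.25 over all tested genes). The one that rose was Tshz3, a teashirt-family gene of cortical projection neurons, with 82 and 87 interactions at E16.5 against 20 and 28 at E12.5 (1.95-fold, adjusted p = 0.00901, edgeR's quasi-likelihood test). Of 16 SMAD, CtBP and NuRD genes, whose proteins work with ZEB factors, 5 were tested and 0 passed. Their smallest p-values were those of the inhibitory SMAD genes Smad7 (21 and 33 at E16.5 against 8 and 9 at E12.5, adjusted p = 0.144) and Smad6 (3 and 9 against 5 and 9, adjusted p = 0.233), and Smad9 (4 and 6 against 2 and 0, adjusted p = 0.415). The corepressor gene Ctbp2 had 26 and 40 against 22 and 20 (log2 change after scaling -0.20, adjusted p = 0.711, edgeR's quasi-likelihood test). The median log2 change of the 5 was 0.46.

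Of 12 genes of the epithelial-mesenchymal transition, 4 were tested, of which 1 fell, 0 rose and 3 did not pass. Over all tested genes, 3.49% fell and 10.8% rose. The one that fell was Vim, the intermediate filament gene of radial glia and mesenchyme. It had 8 and 7 interactions at E16.5 against 11 and 10 at E12.5 (log2 change -1.32, SE 0.38, adjusted p = 0.0436, edgeR's quasi-likelihood test). The cadherin genes Cdh1, a classic target of ZEB repression, and Cdh2 had 5 and 2 against 2 and 2 and 10 and 15 against 7 and 4. Their log2 changes after scaling were -0.04 and 0.33 (adjusted p = 0.988 and 0.724, edgeR's quasi-likelihood test). The median log2 change of the 4 was -0.50, against 0.25 over all tested genes. Of 10 forebrain genes that have been studied with Zeb2, 8 were tested, and 1 rose and 0 fell, again near the share over all tested genes (median 0.69). Fgf9, a growth factor gene, had 15 and 10 against 2 and 4 (adjusted p = 0.177), and the interneuron gene Lhx6 had 10 and 5 against 2 and 2 (adjusted p = 0.384, edgeR's quasi-likelihood test).

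The genes with a profile most like each member were found by the Euclidean distance between centred log2 numbers over the 4 libraries, among 4035 genes and leaving out genes that share a bin. For Zeb2 they were Ddx23 and Hbp1 (7 and 6 at E16.5 against 1 and 0 at E12.5, both) and Dscc1 (7 and 5 against 1 and 0). For Zfhx3, 7 genes tied as nearest, and the first 3 in alphabetical order were Adnp, Grb10 and Isg20l2, with 4 and 3 against 2 and 2 in each. Zeb1 was nearest to Fjx1 (67 and 65 against 51 and 44), 5730409E04Rik and Pitpnc1, and Zfhx4 to Brsk1 (3 and 4 against 7 and 2), Nek9 and Slc25a21. With 4 libraries and such low numbers, many genes share nearly the same profile.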

How the data were processed

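The 4 PLAC-seq libraries of 16 samples were analysed; the other 12 samples were not used here. BWA and SAMtools were used and the build was mm10, per the submitters' processing notes; the sources used here name neither versions nor the interaction caller. The deposited lists hold, per the file headers, for each pair of 10 kb bins a count of read pairs, an expected value (a model signal that is never negative), an FDR (a q-value, all under 0.01) and a −log10 p of its cluster. Listed pairs were on 19 autosomes, 20 to 1000 kb apart, with counts at least 2 times the expected value. Gene bodies were those of RefSeq on GRCm38.p6 (mm10), which gives 20661 autosomal protein-coding gene symbols, and coordinates are 1-based.

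Interactions touching each gene body were counted and tested for 4035 genes with a sum of at least 10, and read pairs for 6875 bin pairs listed in all libraries, with edgeR 4.0.16 in R 4.3.3 (TMM, robust quasi-likelihood, stage as the term, Benjamini-Hochberg at 0.05). An SE was taken as log2 change over the square root of F. At low counts such an SE can be smaller than the p-value implies, so intervals of 2 SE may be too short. Genes that share bins share interactions. In simulated data, 82% of 4-fold and 31% of 2-fold changes in number, and 89% and 50% in contact strength, were recovered over 4035 genes and 6875 contacts. The changes were placed only in genes and contacts with a mean of at least 10 per library. Zeb1 and Zfhx4 lie below that mean, so these shares do not cover their numbers. Counts were drawn at 1 common dispersion (9.8e-05 for numbers and 0.0068 for contacts), so the shares may be too high for features that vary more. Replicates differed by more than counting noise (chi-square over its degrees of freedom 1.75 at E16.5 and 1.30 at E12.5). Contacts named were those with the 3 smallest p per gene; partner bins, the 5 in most libraries and then with most read pairs, and up to 3 per stage listed in both of its libraries alone; list genes, those past the threshold or else the 3 smallest p. Ctbp2, Cdh1, Cdh2, Fgf9 and Lhx6, and bins outside these rules, were added after their values were seen. Some list members that the rule picked are not reported here. The genes and lists were chosen with earlier results of these data known. Alternatives covered scaling, filters, DESeq2 1.42.0, list length, FDR, clusters, read pairs, distance, gene ends, quasi-dispersion, the expected value as an offset, distance-wise scaling, a block for replicate number and leaving out each library; the shorter Zfhx3 body was added after seeing the data.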

Additional observations from a re-analysis of the deposited data

How the results depend on the processing

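The number of genes past the threshold was 576. It was 105 by DESeq2, 262 with lists of equal length, 225 with an FDR under 0.0001, 159 with distances of at most 200 kb, and 0 by edgeR with clusters counted once or read pairs summed (181 and 1565 with an unadjusted p under 0.05). It ran from 268 to 506 with 1 library left out (268 without E12.5 replicate 1, 320 without E12.5 replicate 2, 344 without E16.5 replicate 2). For contact strength 719 passed, 98 by DESeq2, 1 with the expected value as an offset (1086 with an unadjusted p under 0.05) and 274 to 537 with 1 library left out (274 without E12.5 replicate 2, 301 without E12.5 replicate 1, 475 without E16.5 replicate 2). The Zeb2 log2 change was 1.74 with lists of equal length, 3.50 with an FDR under 0.0001, 1.39 with clusters counted once and 1.66 with read pairs summed, none of which passed, and 1.32 to 2.97 with 1 library left out. The Zfhx3 change turned positive without a filter (0.009), with an FDR under 0.0001 (0.13), with clusters (0.081), with read pairs (0.086) and with the shorter body (0.029), and ran from -0.19 to 0.06 with 1 library left out. Leaving out 1 library moved the Zeb1 contacts from -0.31 to 0.0207 (430 kb) and from -0.60 to 0.57 (390 kb), and the Zfhx3 contact at 760 kb from -0.11 to 0.78. The difference in median distance was 5000 bases for Zeb1, -5000 with an FDR under 0.0001 and -2500 to 12500 with 1 library left out; for Zfhx4 it was -12500, with 2500 for lists of equal length and -50000 to 25000 with 1 library left out. The causes were not tested. With the replicate number as a block, 494 genes and 939 contacts passed and the Zeb2 change was 1.95, past the threshold as before. Same-numbered libraries deviated together weakly (correlation 0.083 over 4035 genes and 0.127 over 6875 contacts) and share only a number. No value could be had at distances of at most 200 kb for any of the 4 genes, for Zfhx3 with gene-end bins, for Zeb1 and Zfhx4 with an FDR under 0.0001, for Zeb1 with clusters counted once, or for the distance of Zeb2 and Zfhx4 with an FDR under 0.0001 and of Zeb2 without its internal contacts. Numbers below 10 limit what can be said of Zeb1 and Zfhx4.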
